A study of Homo sapiens with 2 samples.

Results

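The genes described here carry LINC names, the label given to long intergenic noncoding RNAs (lincRNAs). They were selected by name, LINC followed by digits alone in the deposited tables, and by a level of 1 FPKM (fragments scaled by effective length and by library total) or more in either library. There were 29 such genes among 140 LINC names and 57485 genes in all. Because the FPKM values chose the members, the ratios between libraries are given as a description and no test is made on them. The data were 2 RNA-seq libraries of ARP1, a human multiple myeloma (MM) cell line, which both carried a lentiviral shRNA in the TRIPZ vector, which expresses the hairpin when doxycycline (Dox) is given. There was 1 library labelled untreated and 1 labelled as treated with Dox, and no library of Dox-treated cells lacking the hairpin. The title of both libraries names SRD5A1, a steroid 5α-reductase, as the target, while the genotype label of the Dox library names SRD5A2. With 1 library per condition no difference has a replicate check, and the effects of Dox and of the hairpin cannot be told apart.

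LincRNAs are transcribed by RNA polymerase II, and most are capped, spliced and polyadenylated like mRNA but carry no long reading frame. Many start next to the promoter of a protein-coding gene on the other strand, many are kept low by nuclear decay, and their levels are often specific to a cell type. Some LINC names were given to RNAs later found to encode small proteins or to host small RNAs. In bulk RNA, fewer cells of a type and less RNA per cell cannot be told apart.

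The libraries held 45918570 expected counts without Dox and 48728927 with Dox, and 3 counts, the limit that a count of 0 allows, equal 0.065 and 0.062 CPM (counts scaled by library total). All 9 plasma cell markers checked were above 1 FPKM, with summed levels of 7842 FPKM without Dox and 5820 FPKM with Dox. Most of each sum was JCHAIN, at 5444 FPKM without Dox and 3515 FPKM with Dox. SDC1, XBP1 and MZB1 were also lower with Dox, while TNFRSF17, SLAMF7, IRF4 and PRDM1 were higher and CD38 was level. The B cell marker CD22 was listed at 0 in both libraries, PAX5 had 1.32 and 0.79 FPKM, and none of the 3 T or NK cell, 3 myeloid and 2 fibroblast markers reached 1 FPKM. Of the 2 epithelial markers, EPCAM had 1.93 FPKM without Dox and 1.52 with Dox, which rest on 43 and 38 counts. SRD5A1 itself was listed at 13.04 FPKM without Dox and at 25.88 FPKM with Dox, a log2 ratio of 0.98, so its RNA was higher and not lower in the library labelled with Dox. By western blotting, the paper found the enzyme strongly reduced in ARP1 cells given Dox. A knockdown was thus not seen in the RNA of the cells sequenced. These data hold no measure of the enzyme, so whether it was reduced in those cells was not tested, and each library is named by its label only.

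The RefSeq promoter windows (GRCh38.p14, 250 bases before to 50 after the start) are shown for the 3 LINC genes with the highest ratios and for LINC00235, to set windows from the top of the order of ratios beside that of the gene with the lowest ratio among those with a window. They are read 5′ to 3′ on the strand of the gene, and capitals mark CCAAT on either strand or CACGTG, the E-box of MYC-like and TFE-like factors. The windows are chr1:148459871-148460170, reverse strand for LINC01138, chr12:116533172-116533471, forward strand for LINC00173, chr2:43226961-43227260, forward strand for LINC01126 and chr16:527358-527657, reverse strand for LINC00235. That of LINC01138 lies inside the span GENCODE gives for this gene and not at its outer end, so the annotations place the start differently.
LINC01138: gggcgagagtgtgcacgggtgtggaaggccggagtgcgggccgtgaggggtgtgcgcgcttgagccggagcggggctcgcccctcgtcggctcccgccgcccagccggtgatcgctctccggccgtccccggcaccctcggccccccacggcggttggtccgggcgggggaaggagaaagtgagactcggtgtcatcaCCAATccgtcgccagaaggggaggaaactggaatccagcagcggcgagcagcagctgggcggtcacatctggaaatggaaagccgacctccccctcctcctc
LINC00173: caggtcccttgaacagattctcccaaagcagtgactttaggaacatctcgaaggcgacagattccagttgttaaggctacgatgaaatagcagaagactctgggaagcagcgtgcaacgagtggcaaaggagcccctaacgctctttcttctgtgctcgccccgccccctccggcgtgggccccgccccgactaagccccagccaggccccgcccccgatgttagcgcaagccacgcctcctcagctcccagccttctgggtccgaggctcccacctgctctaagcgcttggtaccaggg
LINC01126: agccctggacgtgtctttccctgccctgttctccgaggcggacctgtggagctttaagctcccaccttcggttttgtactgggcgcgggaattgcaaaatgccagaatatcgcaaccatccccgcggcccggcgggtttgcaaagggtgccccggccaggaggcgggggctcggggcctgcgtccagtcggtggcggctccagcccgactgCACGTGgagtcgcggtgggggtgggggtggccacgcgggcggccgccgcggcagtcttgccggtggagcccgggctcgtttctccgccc
LINC00235: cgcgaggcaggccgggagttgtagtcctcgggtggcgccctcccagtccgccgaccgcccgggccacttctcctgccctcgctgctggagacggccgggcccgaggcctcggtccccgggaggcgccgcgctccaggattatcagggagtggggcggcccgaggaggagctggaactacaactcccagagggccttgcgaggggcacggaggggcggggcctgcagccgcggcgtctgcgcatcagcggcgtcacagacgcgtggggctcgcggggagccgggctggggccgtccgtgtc
The GC content of these windows was 70.3% for LINC01138, 61.0% for LINC00173, 69.7% for LINC01126 and 75.3% for LINC00235, so LINC00235 had the highest value of these 4. The motifs searched on both strands were TGATGNAA, the element of ATF4 with a C/EBP partner, TGACGTCA, the full cAMP response element, and CACGTG and CCAAT, none of which overlapped another in the windows shown. Promoter windows were found for 23 of the 29 genes, 30 windows in all. TGATGNAA and TGACGTCA were in 0 of them, beside 3.62% and 1.85% of the 35116 promoters of the table. CACGTG was in 2 of the 30 windows, those of LINC01126 and LINC00493, beside 7.26% of all promoters. CCAAT was in 11 of the 30 windows, from 10 genes, beside 34.6% of all promoters. Taking the first window of each gene, the median GC content was 61.0% for the 11 genes more than 2-fold higher with Dox that had a window and 55.0% for the 12 others, beside 58.7% for all promoters.

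LINC genes were mostly higher in the library labelled with Dox. Of the 29 genes, 26 had a log2 ratio above 0 and 3 below 0, where the log2 ratio is that of FPKM plus a pseudocount of 0.1, with Dox over without Dox. More than 2-fold higher with Dox were 12 genes, or 41.4%, and 0 were more than 2-fold lower. The same limit was passed by 17.0% of all 14859 genes that reached 1 FPKM in either library in the direction of Dox, and by 6.41% in the other direction. The median log2 ratio was 0.76 for the LINC genes and 0.15 for all 14859 genes. With edgeR's TMM factors, these shares were 13.1% and 10.3%, the median of all genes was -0.05, and that of the LINC genes was 0.56, since such a factor shifts all genes alike.

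The comparison with other gene classes shows where the LINC genes stood. Past 2-fold were 11.8% of 11480 protein-coding genes on the side of Dox and 6.04% on the other side. For the 1903 other genes in the lncRNA annotation of GENCODE release 29 these shares were 37.7% and 5.36%. The share of 41.4% among the LINC genes was thus near that of the other lncRNA genes, and it is not a result particular to the LINC names. The 136 genes that GENCODE release 29 names LINC, but that the tables list under other names, gave 49.3% higher and 3.68% lower. They were not taken out of the 1903 genes, so the sets overlap and are not separate comparisons. The median log2 ratios were 0.07 for protein-coding genes, 0.69 for other lncRNA genes and 0.99 for these 136 genes.

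A gene that passes 1 FPKM in 1 library only has to differ, so levels were compared next. The limit was reached in the library with Dox alone by 7 of the 29 LINC genes, and in the library without Dox alone by 0. Among the 22 LINC genes with at least 1 FPKM in both libraries, 7 were more than 2-fold higher, or 31.8%, with a median log2 ratio of 0.70. With the same limit, 9.13% of protein-coding genes and 24.4% of other lncRNA genes were higher, with medians of 0.05 and 0.46. Classes were also split by mean FPKM over both libraries. At 10 FPKM or more, 4 of 8 LINC genes, 29.7% of 222 other lncRNA genes and 7.27% of 7222 protein-coding genes were past 2-fold on the side of Dox. From 2 to 10 FPKM these were 4 of 10 LINC genes, 34.5% of other lncRNA genes and 15.8% of protein-coding genes, and under 2 FPKM 4 of 11, 42.5% and 29.2%. The share of protein-coding genes was thus lowest at the highest level, as was that of other lncRNA genes to a smaller extent, while the LINC genes are too few at each level to order them.

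**Figure D1:**
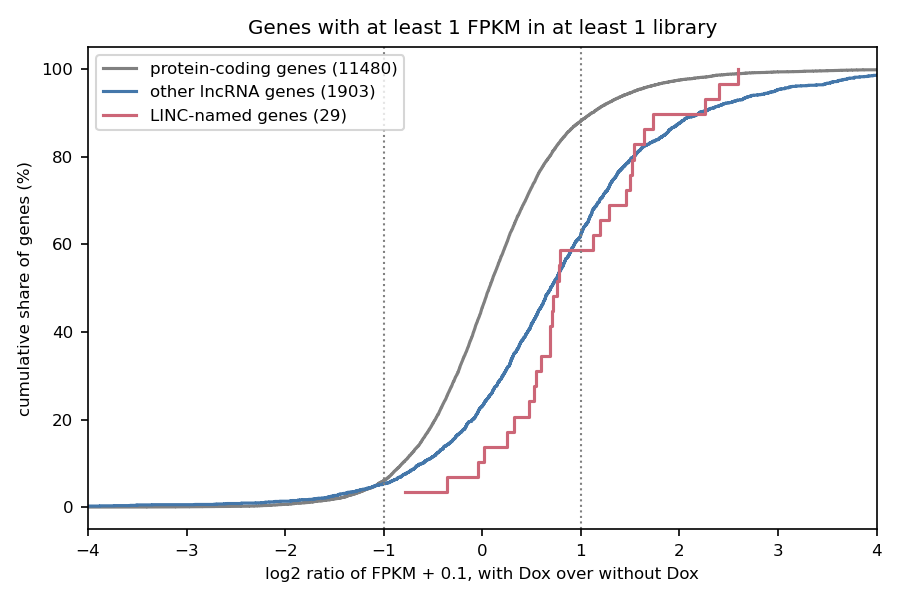
Cumulative share of genes (%) by log2 ratio of FPKM + 0.1, with Dox over without Dox, for 11480 protein-coding genes (grey), 1903 other lncRNA genes (blue) and the 29 LINC-named genes (red), with dotted lines at 2-fold. The blue and red curves lie to the right of the grey one, with medians of 0.69, 0.76 and 0.07, respectively, and genes beyond the ends of the axis are not drawn.

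All 140 LINC names are accounted for as follows. Both libraries listed 0 counts for 62 of them, and 49 had some count but stayed under 1 FPKM in both libraries. Of these 49, 12 had a log2 ratio above 1 and 2 below -1. The LINC genes nearest the limit from inside were LINC00470, at 0.96 and 1.22 FPKM without and with Dox, LINC01144 at 0.30 and 1.23 FPKM, and LINC00997 at 1.26 and 1.22 FPKM. Just outside were LINC01132, at 0.29 and 0.99 FPKM, LINC00624 at 0.95 and 0.42 FPKM, and LINC00471 at 0.13 and 0.93 FPKM. LINC00624 was thus left out with the lower value in the library with Dox, and it rested on 124 and 57.49 counts.

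LINC genes took a small part of each library, 7948 counts without Dox and 16507 with Dox over the 29 genes, or 0.0173% and 0.0339% of the total. Their FPKM ranged from 0.30 to 32.44 without Dox, with a median of 2.50, and from 1.13 to 69.44 with Dox, with a median of 3.72. Across all 14859 genes the medians were 10.19 and 11.67 FPKM. In GENCODE release 29 the LINC genes were typed as lincRNA for 20, processed transcript for 4, antisense for 2, and bidirectional promoter lncRNA, sense overlapping and protein coding for 1 each. So by type the label of intergenic noncoding RNA holds for most of them but not for all. Some genes typed as lincRNA also overlap the span of a coding gene, such as LINC00304 and LINC00294, so the type alone does not make them intergenic. All 4 processed transcript genes were more than 2-fold higher with Dox, as were 8 of the 20 lincRNA genes, beside 17.0% of all genes and 37.7% of other lncRNA genes. The 4 genes are too few to describe a type.

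Genes with LINC names that encode small proteins or host small RNAs are taken first. LINC00493 is SMIM26 in current annotation (chromosome 20 from 18567347 to 18569563), a gene for a small mitochondrial membrane protein, and was listed at 32.44 FPKM (450 counts) without Dox and 55.99 FPKM (817 counts) with Dox. Its log2 ratio was 0.79 (95% counting interval 0.62 to 0.95), within 2-fold. LINC00467, on chromosome 1 from 211382803 to 211435333, encodes a micropeptide that associates with ATP synthase. It was listed at 5.44 FPKM (415.99 counts) and 15.09 FPKM (1374.61 counts), a log2 ratio of 1.46 (1.3 to 1.62). The interval of LINC00467 lies above 2-fold and above the whole interval of LINC00493. LINC00338 is the small nucleolar RNA host gene SNHG20 on chromosome 17 and had 9.22 FPKM without Dox and 13.50 FPKM with Dox, a log2 ratio of 0.55 (0.41 to 0.68). LINC00461, on chromosome 5, is the host gene of a microRNA of the miR-9 family and had 0.86 and 1.48 FPKM, from 125 and 227 counts, a log2 ratio of 0.72 (0.40 to 1.05). LINC00632 on chromosome X lies opposite CDR1 and is the precursor of a circular RNA, which was not measured apart from it here. The gene had 3.49 and 3.54 FPKM, from 77 and 82 counts, a log2 ratio of 0.02 (-0.45 to 0.49). Among these hosts and coding genes only LINC00467 was thus past 2-fold, and LINC00632 was nearly level between the libraries.

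A group of 8 LINC genes started on the strand opposite to a protein-coding gene and within 5 kb of its start. In this group 3 were more than 2-fold higher with Dox, beside 17.0% of all genes and 37.7% of other lncRNA genes, and the median log2 ratio was 0.74. This is near the share of other lncRNA genes and not a result particular to the arrangement. LINC01126, a single-exon gene on chromosome 2 from 43227210 to 43228855, starts 601 bases from ZFP36L2, which encodes an RNA-binding protein that promotes mRNA decay. LINC01126 was listed at 0.70 FPKM (45 counts) without Dox and 3.72 FPKM (254 counts) with Dox, a log2 ratio of 2.26 (1.79 to 2.75), while ZFP36L2 had 32.34 and 38.45 FPKM, a log2 ratio of 0.25. So the noncoding side of this pair was far higher with Dox and the coding side was within 2-fold. LINC00476, on chromosome 9, starts 276 bases from ERCC6L2, a DNA repair helicase gene, and had 5.39 FPKM (200.37 counts) and 15.40 FPKM (600.55 counts), a log2 ratio of 1.5 (1.26 to 1.74). ERCC6L2 had 7.81 and 11.84 FPKM, a log2 ratio of 0.59. LINC01144 on chromosome 1 was listed at 0.30 and 1.23 FPKM on 20 and 88 counts, a log2 ratio of 1.73 (1.02 to 2.51), and its neighbour ZSWIM5 stayed below 1 FPKM.

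The other 5 genes of this group were within 2-fold. LINC00528, on chromosome 22 from 17777322 to 17779481, is a single-exon gene seen in lymphoid cells and starts 2552 bases from BID, which encodes a BH3-only death protein. LINC00528 had 12.34 FPKM (1086 counts) without Dox and 20.21 FPKM (1885 counts) with Dox, a log2 ratio of 0.71 (0.60 to 0.82), while BID had 98.09 and 44.89 FPKM, a log2 ratio of -1.13. The members of this pair thus lay on opposite sides of 0. LINC00205 starts 152 bases from POFUT2, which adds fucose to secreted proteins, on chromosome 21. It had 3.74 FPKM (736 counts) and 6.50 FPKM (1759 counts), a log2 ratio of 0.78 (0.66 to 0.91), but in CPM its log2 ratio was 1.17, since the effective length listed for it was 1.296 times as long in the library with Dox. LINC00649, opposite the ATP synthase subunit gene ATP5PO, had 20.19 and 30.56 FPKM, a log2 ratio of 0.60 (0.43 to 0.76). LINC00337, opposite ICMT, had 1.06 and 1.51 FPKM, a log2 ratio of 0.47 (-0.06 to 1.02), whose interval includes 0. LINC00235, on chromosome 16 from 525155 to 527407, had 1.48 FPKM (137 counts) and 1.13 FPKM (111 counts), a log2 ratio of -0.36 (-0.74 to 0.01), and CAPN15, a calpain family gene whose start is 310 bases away, had 37.61 and 22.46 FPKM, a log2 ratio of -0.74. Both genes of this last pair were lower with Dox, but the interval of LINC00235 includes 0.

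Other LINC genes lie along the same strand as a coding gene or overlap one. LINC00467, given above, and LINC00324 start downstream of a coding gene on its strand, within 10 kb of its end, and both were more than 2-fold higher with Dox. LINC00324, on chromosome 17, lies 778 bases past the telomere maintenance gene CTC1 and had 0.71 FPKM (60 counts) and 1.75 FPKM (157 counts), a log2 ratio of 1.19 (0.75 to 1.65). CTC1 had 32.93 and 24.85 FPKM, a log2 ratio of -0.40, and TRAF5, the signaling adaptor gene before LINC00467, had 11.63 and 11.13 FPKM, a log2 ratio of -0.06. Neither upstream gene was thus higher with Dox. LINC00304, within the span of the mitochondrial acyl-CoA synthetase gene ACSF3 on chromosome 16, had 2.44 FPKM (146 counts) and 6.07 FPKM (411 counts), a log2 ratio of 1.28 (1.0 to 1.56), while ACSF3 had a log2 ratio of -0.11. LINC01232, opposite TM9SF2 on chromosome 13, had 1.53 and 3.45 FPKM, a log2 ratio of 1.12 (0.81 to 1.44). LINC00294, inside the span of TCP11L1 on chromosome 11, had 3.06 and 4.45 FPKM, a log2 ratio of 0.53 (0.35 to 0.70), and LINC00921, which overlaps the zinc finger gene ZNF263 on chromosome 16, had 1.03 and 1.72 FPKM, a log2 ratio of 0.69 (0.33 to 1.05). Of these overlapping genes, LINC00304 and LINC01232 were past 2-fold and the interval of LINC01232 reaches below it.

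The 2 highest ratios were those of LINC genes whose nearest coding gene is on the same strand. LINC01138, on chromosome 1 from 148290889 to 148519604 with 10 listed transcripts, has been studied in liver cancer. It was listed at 7.46 FPKM (262.97 counts) without Dox and 45.51 FPKM (1874.50 counts) with Dox, a 6.10-fold difference and a log2 ratio of 2.59 (2.41 to 2.78). The span of LINC01138 overlaps the coding gene PPIAL4G, which had 4.0 and 2.98 counts and stayed below 1 FPKM. LINC00173, on chromosome 12 from 116533422 to 116536518, was listed at 2.98 FPKM (71 counts) and 16.16 FPKM (386 counts), a 5.42-fold difference and a log2 ratio of 2.40 (2.03 to 2.79). The intervals of LINC01138, LINC00173 and LINC01126 overlap, so counting error alone does not order these 3 genes. The coding gene nearest to LINC00173, 11587 bases away on the same strand, is MAP1LC3B2, a copy of the autophagy gene MAP1LC3B, and it had 0.47 and 3.54 FPKM, a log2 ratio of 2.67. MAP1LC3B2 rests on 9.33 and 73.40 counts, and how far it shares reads with MAP1LC3B was not tested.

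LINC01002, the LINC gene with the highest FPKM in the library with Dox, lies near the end of chromosome 19 from 198264 to 239440. It was listed at 23.87 FPKM (471.20 counts) without Dox and 69.44 FPKM (1334.02 counts) with Dox, a log2 ratio of 1.54 (1.38 to 1.69). Of the 50-base stretches of its 37 listed transcripts, 69.9% are also in transcripts of other genes, 34.0% in FAM157A, so its counts depend on how shared reads were apportioned. Over 10% of such stretches were shared in 8 of the 29 genes, with 39.6% for LINC00526, which shares them with LINC00667, 27.2% for LINC00304 with ACSF3, 22.7% for LINC00338, 21.1% for LINC00294, 19.5% for LINC01138, 13.3% for LINC00506 and 12.2% for LINC00997. Without these 8 genes, 8 of 21 were more than 2-fold higher and the median log2 ratio was again 0.76. The stretches were matched on either strand, so these shares include overlap with genes on the opposite strand. The strand setting of the counting is not given in the sources used here, so reads of such overlapping genes may be mixed. Exons on the opposite strand covered 41.2% of the exon bases of LINC00526, 21.2% of LINC01138 and 17.4% of LINC00294. For these genes the shared stretches and the opposite exons can be the same overlap, and its part in the ratios was not tested.

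The remaining genes are given by ratio. LINC00526 on chromosome 18 had 0.46 and 1.65 FPKM on 34.49 and 130.64 counts, a log2 ratio of 1.64 (1.09 to 2.23). LINC01012, on chromosome 6 and 97222 bases from the histone gene HIST1H2BL, had 0.53 and 1.70 FPKM on 21 and 43 counts, a log2 ratio of 1.51 (0.73 to 2.34), while in CPM its log2 ratio was 0.95. LINC00539 had 2.86 and 4.92 FPKM, a log2 ratio of 0.76 (0.36 to 1.17), and LINC00506 had 2.50 and 4.09 FPKM, a log2 ratio of 0.69 (0.52 to 0.86). The intervals of LINC00539 and LINC00506 lie above 0, while those of the next 3 genes include it. LINC00470 had a log2 ratio of 0.32 (-0.51 to 1.18), LINC00923 of 0.25 (-0.24 to 0.76) and LINC00997 of -0.04 (-0.39 to 0.30).

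LINC00891, on chromosome X from 71697196 to 71706455, was the lowest of the 29 genes by ratio. It was listed at 5.17 FPKM (919 counts) without Dox and 2.95 FPKM (556 counts) with Dox, a log2 ratio of -0.79 (-0.94 to -0.64), or 0.571 of the level without Dox. It was the only one of the 29 genes whose interval lies below 0, and its counts were whole numbers in both libraries. Of the 29 genes, 16 had whole counts in both libraries, within 0.005 of a count, and 17 had at least 200 counts in the higher library. In the group with at least 200 counts, 8 of 17 genes were more than 2-fold higher with a median log2 ratio of 0.79, and in the other group 4 of 12 with a median of 0.58. These stand beside 17.0% of all genes and 37.7% of other lncRNA genes. Only 12 genes had at least 200 counts in both libraries. LINC00173, LINC01126, LINC00304 and LINC01232, all past 2-fold, entered the first group through the library with Dox alone. The split thus depends on the ratios, and the groups cannot be compared by it.

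The genes past 2-fold did not stand apart in structure. The 12 genes that were more than 2-fold higher had a median of 4 exons in the transcript with the most exons, as had the 17 genes within 2-fold, and 3 of the 12 and 4 of the 17 were single-exon genes. Their median span was 8722 bases, beside 9757 bases for the others, and their median of mean FPKM was 3.38, beside 3.52. Starts opposite a coding start were found for 3 of the 12 and 5 of the 17. The nearest protein-coding gene reached 1 FPKM for 21 of the 29 LINC genes. Of these neighbours 2 were more than 2-fold higher, MAP1LC3B2 and AL121900.2, a readthrough gene that shares exons with LINC00493 and was listed at 0 counts without Dox and 33.28 with Dox, and 1 was more than 2-fold lower, BID. The median log2 ratio of the neighbours was 0.23, beside 0.07 for the whole protein-coding class. Of the 7 LINC genes with such a neighbour that were more than 2-fold higher 1, LINC00173, had a neighbour that was too. In the whole class, 11.8% passed the 2-fold limit upward and 6.04% downward. The 2 and 1 of 21 neighbours, and the 1 of 7, are near these shares. Across the 21 pairs Pearson's r was 0.30 and Spearman's rho was 0.20, as a description of pairs that share the same 2 libraries.

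Lists of related genes were set beside the LINC genes. Of 35 well-known long noncoding RNAs with other names, 23 were above 1 FPKM. Of these 6 were past 2-fold on the side of Dox and 2 on the other, with a median log2 ratio of 0.57. The shares were 17.0% and 6.41% over all genes, and 37.7% and 5.36% over other lncRNA genes. NEAT1, the RNA scaffold of nuclear paraspeckles, had 200.93 FPKM without Dox and 518.10 FPKM with Dox, a log2 ratio of 1.37. MALAT1, the RNA of nuclear speckles, had 132.15 and 109.72 FPKM, a log2 ratio of -0.27, and NORAD, which binds Pumilio proteins, had 54.15 and 55.02 FPKM, a log2 ratio of 0.02. LINC-PINT, a p53-responsive RNA whose name has no digits and which is therefore not among the 29, had 6.46 and 23.53 FPKM, a log2 ratio of 1.85, and MIR17HG, the host of the miR-17 cluster, had 18.49 and 6.25 FPKM, a log2 ratio of -1.55. High noncoding RNAs were thus found on both sides of 0 and near it.

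The list of nuclear RNA decay, cleavage and Integrator factors, which act on noncoding RNA, had 43 genes above 1 FPKM, with 2 past 2-fold on the side of Dox and 3 on the other, with a median log2 ratio of -0.17 beside 0.15 for all genes. ZCCHC8, a subunit of the nuclear exosome targeting complex, had 14.89 FPKM without Dox and 44.75 with Dox, a log2 ratio of 1.58, and EXOSC8, a core exosome subunit, had 69.58 and 143.78 FPKM, a log2 ratio of 1.05. SRRT, the ARS2 protein that links the RNA cap to decay, had 139.18 and 48.93 FPKM, a log2 ratio of -1.51. The exosome subunits EXOSC4 and EXOSC7 had log2 ratios of -1.72 and -1.24, from 22.70 to 6.84 FPKM and from 39.97 to 16.84 FPKM. These counts, 2 and 3 of 43, stand beside 17.0% and 6.41% of all genes. Most of the factors had a mean of 10 FPKM or more. At that level the shares of all genes were 8.28% and 5.4%, with a median log2 ratio of 0.02. Both numbers of factors are near these shares. The part of the factors in the levels of the LINC genes was not tested. Of LINC names on fixed lists, 2 of 8 with a reported micropeptide, 1 of 17 found in lymphoid or plasma cells and 1 of 26 studied in cancer were among the 29 genes, and 2, 3 and 6 of those names were in the tables at all.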

How the data were processed

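RNA of ARP1 cells was sequenced in 1 library labelled untreated and 1 labelled with Dox, after poly(A) selection and in paired reads of 150 bases. For each gene the tables deposited by the authors hold expected counts, in which a read shared by transcripts is split among them, in columns named as RSEM names them. The authors deposited TPM values, scaled by effective length to the same sum in each library, and FPKM values, divided by the library total and the effective length. The effective length can differ between libraries and then moves FPKM. The submitters' processing notes name Bowtie 0.12.2, HISAT2 2.1.0, StringTie 1.3.4d and hg19. The tables hold no coordinates, and those printed are GRCh38 from GENCODE release 29, in which 203746 of 204675 listed transcripts were found, versions ignored. Depth was 45918570 and 48728927 expected counts.

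Log2 ratios used FPKM with a pseudocount of 0.1, and 2-fold was the limit for counts of genes. The quasi-likelihood test of edgeR was not run, since it needs replicates. The widths of the 95% intervals are those of exact binomial (Clopper-Pearson) intervals of the rounded counts, placed around the log2 ratio of FPKM. They cover counting error only. Where effective lengths differ between the libraries they can miss the log2 ratio in CPM, as for LINC00205 and LINC00467. Stretches of 50 bases were compared with all GENCODE transcripts, on either strand. The rule for named genes took the 12 highest levels, the 10 highest and 10 lowest ratios among genes with at least 200 counts, the 3 genes on each side of the limit, the 3 ratios nearest 0 and the list members that passed. The others of the 29 genes, and the genes named from the lists of other RNAs and decay factors, were named after their values were seen. Members and lists were chosen with earlier results of these data known. edgeR 4.0.16 and DESeq2 1.42.0 in R 4.3.3 gave scaling factors from rounded counts of genes with at least 10, and Python 3.11.15 with pandas 2.3.3, numpy 2.4.6, scipy 1.17.1 and matplotlib 3.10.9 was used for the rest. The ratio step was run on simulated counts with changes planted in genes of at least 200 counts without Dox. Only counting noise was added and effective lengths were kept fixed, so the run does not cover genes with fewer counts or with differing effective lengths. Alternatives covered the pseudocount, the filter and the scaling.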

Additional observations from a re-analysis of the deposited data

How the results depend on the processing

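The values depend on the pseudocount, the filter and the scaling. With a pseudocount of 1 FPKM, 7 LINC genes were more than 2-fold higher, beside 10.8% of all genes and 20.9% of other lncRNA genes. With edgeR's TMM factors the median log2 ratio was 0.56 and with DESeq2 size factors 0.55, where 1 gene was more than 2-fold lower, LINC00891 at -1.0, beside 10.5% of all genes. With any count in either library 24 of 78 were higher and 2 lower, with a median log2 ratio of 0.50, beside 16.8% and 6.72% of all genes and 24.7% higher of other lncRNA genes. With at least 5 FPKM 6 of 12 were higher, beside 12% of all genes and 39.2% of other lncRNA genes. Under 7 settings of pseudocount and scaling, 7 genes were more than 2-fold higher in each, LINC00173, LINC00304, LINC00467, LINC00476, LINC01002, LINC01126 and LINC01138. More than 2-fold higher in some settings only were 6 genes, LINC00324, LINC00526, LINC01012, LINC01144, LINC01232 and LINC00205, the last of which was within 2-fold as reported. The sign of the ratio changed for 2 genes near 0, LINC00632 and LINC00997, and for no gene past 2-fold. The causes were not tested. The mean effective length of both libraries, and the leaving out of genes with shared stretches, are alternatives added once the values were known, that is, chosen after seeing the data, and gave 11 of 29 and 8 of 21 genes more than 2-fold higher, with medians of 0.77 and 0.76. No paired analysis was possible because each condition has 1 library, and so no library could be left out either. Depth limits the genes with few counts most, and the widest counting intervals were those of LINC00470, LINC01012 and LINC01144.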

Other observations

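The tables list 1767 genes under other names, mostly clone names, that GENCODE release 29 names LINC, and 136 of them had at least 1 FPKM in at least 1 library. Among the 62 of these with at least 200 counts in the higher library, the 5 highest and the 5 lowest log2 ratios, chosen after their values were seen, are given here as values. LINC01229 had 3.04 FPKM (47 counts) without Dox and 48.74 FPKM (912 counts) with Dox, a log2 ratio of 3.96, above that of every one of the 29 genes. LINC02495 had 0.08 and 1.53 FPKM, LINC00877 1.03 and 8.43 FPKM, LINC01055 1.65 and 10.24 FPKM and LINC01145 8.09 and 42.17 FPKM, with log2 ratios from 2.37 to 3.18. LINC01619 was the lowest, at 10.48 FPKM without Dox and 2.79 FPKM with Dox, a log2 ratio of -1.87. LINC00484 had 10.35 and 4.84 FPKM (log2 ratio -1.08), while its counts were 342 and 276. LINC00641 had 11.93 FPKM on 2502 counts and 7.07 FPKM on 1615 counts, LINC00265 had 5.67 and 4.24 FPKM and LINC00565 had 3.84 and 3.43 FPKM.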
